A study of Mus musculus with 17 samples.

Results

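The homeobox (Hox) genes described here are 10 transcription factor genes of the Hoxa and Hoxb clusters, Hoxa3, Hoxa5, Hoxa6, Hoxa7, Hoxa9, Hoxa10, Hoxb2, Hoxb3, Hoxb4 and Hoxb5, taken by symbol from a table of read counts for 35321 gene symbols. All 10 were present, and all 10 passed the filter on low counts. Levels were followed in 17 polyadenylated RNA libraries made from hematopoietic stem and progenitor cells (HSPC), the cells at the root of all blood lineages, which had been sorted from C57BL/6J bone marrow by flow cytometry.

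There were 5 groups, and every group was wild type. The PBS group, titled day 0, was injected with phosphate-buffered saline and held 5 libraries. Mice given lipopolysaccharide into the peritoneum (LPS, an outer-membrane molecule of bacteria that provokes inflammation) were sampled at 24 h and at 72 h, with 3 libraries at each time. Mice given LPS and a blocking antibody to the receptor of interleukin-10, an anti-inflammatory cytokine, are called LPS with antibody and were sampled at the same times, again with 3 libraries each. No group received the antibody without LPS, and no PBS group was titled with a later time. The amounts are 5 of LPS and 100 of antibody in both descriptions of the study, but the series text gives them in micrograms and the sample protocol in milligrams, and neither was assumed to be right. Sex, age and the markers of the sorting gate are not given in the sources used here. The labels do not say whether libraries came from separate mice or pools, so p-values measure only the spread between these libraries, which may be technical.

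Hox proteins bind DNA through a homeodomain, usually together with TALE homeodomain cofactors of the Meis and Pbx families. Their genes lie in clusters whose order along the chromosome follows the order in which they are used along the body axis. In blood formation the Hoxa and Hoxb clusters are most active in stem and early progenitor cells and are turned down as cells mature; the methyltransferase Kmt2a and its partner menin maintain their expression, and Polycomb complexes repress it. Hoxa9 is the member best known for supporting stem cell renewal, and Hoxb4 is known for expanding stem cells when it is overexpressed.

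On the GRCm38 mouse genome, with the GENCODE M21 annotation, the Hoxa members lie on the minus strand of chromosome 6, from Hoxa3 at chr6:52169062-52213336 to Hoxa10 at chr6:52231197-52240854, with Hoxa9 at chr6:52223100-52231089. The Hoxb members lie on the plus strand of chromosome 11, from Hoxb5 at chr11:96303336-96306121 and Hoxb4 at chr11:96318267-96321638 to Hoxb2 at chr11:96350525-96354012. Several members share exon bases with transcripts from the opposite strand. This holds for 52.9% of the exon bases of Hoxb3 and 27.3% of those of Hoxb2 (both with Hoxb3os), 25.4% of Hoxa3, 20.4% of Hoxa7 (with Hoxaas3) and 3.59% of Hoxb5. Hoxa3 also shares 8.01% of its exon bases with Gm28308 on its own strand. Whether the counting used strand is not given in the sources used here, so the counts of these members are uncertain to that extent. Hoxa5, Hoxa6, Hoxa10 and Hoxb4 share 0 exon bases with another annotated gene.

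Upstream sequence was available in a RefSeq table (GRCm38.p6) for 7 of the 10 members, in 8 entries. The 250 bases before the annotated start are shown for 3 members described further on: Hoxa5 and Hoxa9, which were lower 24 h after LPS, and Hoxb4, which was not called. Each is written 5′ to 3′ on the strand of the gene, and capitals mark a motif match. The Hoxa5 window is chr6:52204588-52204837 on the minus strand, the Hoxa9 window is chr6:52227371-52227620 on the minus strand, and the Hoxb4 window is chr11:96318017-96318266 on the plus strand. The Hoxa9 window belongs to a transcript start inside the longer GENCODE gene and covers 0 exon bases.
Hoxa5: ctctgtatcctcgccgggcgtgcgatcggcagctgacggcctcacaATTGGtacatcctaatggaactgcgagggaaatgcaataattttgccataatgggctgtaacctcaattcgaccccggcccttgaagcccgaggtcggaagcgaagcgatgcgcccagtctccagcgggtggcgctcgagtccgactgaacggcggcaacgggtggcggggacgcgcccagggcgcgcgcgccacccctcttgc
Hoxa9: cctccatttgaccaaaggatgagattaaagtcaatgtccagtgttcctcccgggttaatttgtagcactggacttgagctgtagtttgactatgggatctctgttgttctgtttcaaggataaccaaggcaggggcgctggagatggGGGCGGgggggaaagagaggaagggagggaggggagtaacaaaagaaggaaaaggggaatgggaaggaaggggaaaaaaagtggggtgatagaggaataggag
Hoxb4: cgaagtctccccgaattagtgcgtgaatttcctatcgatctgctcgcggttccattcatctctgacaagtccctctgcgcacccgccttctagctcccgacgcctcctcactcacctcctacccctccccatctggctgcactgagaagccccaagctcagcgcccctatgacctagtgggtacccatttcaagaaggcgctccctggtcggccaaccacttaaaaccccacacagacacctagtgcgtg
The capitals in Hoxa5 are CCAAT read on the opposite strand (ATTGG), and those in Hoxa9 are GGGCGG, the core of a GC box. The Hoxb4 window held no match to any motif searched. Searched on both strands were TATAAA, found in 12.4% of the 32851 windows of all genes in the table, CCAAT (33.8%), GGGCGG (32.7%), TGATNNAT (a Hox-Pbx composite, 7.68%), TGACAG (a Meis core, 15.9%), TTCNNNGAA (STAT, 7.02%) and the NF-kB consensus (7.25%). Among the 8 windows of the members, CCAAT was found in 3, GGGCGG in 3, TATAAA in 1 and TGACAG in 1, and the other 3 motifs in 0. The CpG dinucleotide was found 28 times in the Hoxa5 window, 14 times in that of Hoxb4 and 3 times in that of Hoxa9, against a median of 6 over all windows.

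Total counts ran from 10516722 to 16006001 per library, and 14920 genes were tested. Among the libraries, number 1 of the LPS group at 24 h was unlike the rest: its scaling factor of 0.799 and its 16431 detected genes were the lowest of the 17. The results that rest on it are given with and without it. Markers of stem and progenitor cells were present in every library, with a mean of 398.6 counts per 1000000 (CPM) for Kit and 690.2 CPM for Cd34 in the PBS group. Markers of other cell types were also present, and no listed marker was at 0 in all libraries.

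Levels are given as CPM, the share of a gene in the scaled total count of its library. With PBS, mean levels were 46.8 ± 7.97 CPM for Hoxa9, 26.4 ± 3.36 for Hoxa7, 8.63 ± 1.48 for Hoxa3, 7.60 ± 2.57 for Hoxa10, 5.18 ± 0.910 for Hoxb3, 4.94 ± 0.660 for Hoxb4, 4.67 ± 0.680 for Hoxa5, 1.88 ± 0.448 for Hoxa6, 1.24 ± 0.792 for Hoxb2 and 0.703 ± 0.262 for Hoxb5 (SD, n = 5). Between genes, levels were compared per kilobase of annotated exon. On that scale, Hoxa7 at 9.19 ± 1.17 and Hoxa9 at 8.39 ± 1.43 CPM per kb (SD, n = 5) stood above all other members in every PBS library, and they overlapped each other. A middle group ran from Hoxa5 (2.49) through Hoxa10 (2.32), Hoxa6 (2.15), Hoxb4 (1.93) and Hoxa3 (1.44) to Hoxb3 (1.22), in which each gene overlapped the next. Hoxb2 at 0.354 and Hoxb5 at 0.252 CPM per kb were lowest and also overlapped each other, and every PBS library had less of both than of Hoxb3.

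Hoxb5, a gene whose activity marks long-term repopulating stem cells in the mouse, was below 1 CPM in 15 of 17 libraries, and Hoxb2, best known from the hindbrain, in 14 of 17. Hoxa6 was below 1 CPM in 8 libraries and Hoxa3 in 1, LPS library 1 at 24 h. The other 6 members were at or above 1 CPM in every library, and 0 members were below 1 CPM in all of them. By group mean, Hoxb5 alone was below 1 CPM with PBS. Hoxa6, Hoxb2 and Hoxb5 were below it with LPS at 24 h (0.416, 0.558 and 0.212 CPM) and with LPS and antibody at both times (0.514, 0.696 and 0.255 CPM at 24 h, 0.950, 0.655 and 0.391 CPM at 72 h). With LPS at 72 h, 0 members had a mean below 1 CPM. A count of 3 reads corresponded to 0.172 to 0.280 CPM, depending on the library, so the lowest values of Hoxb5 rest on a few reads.

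**Figure D1:**
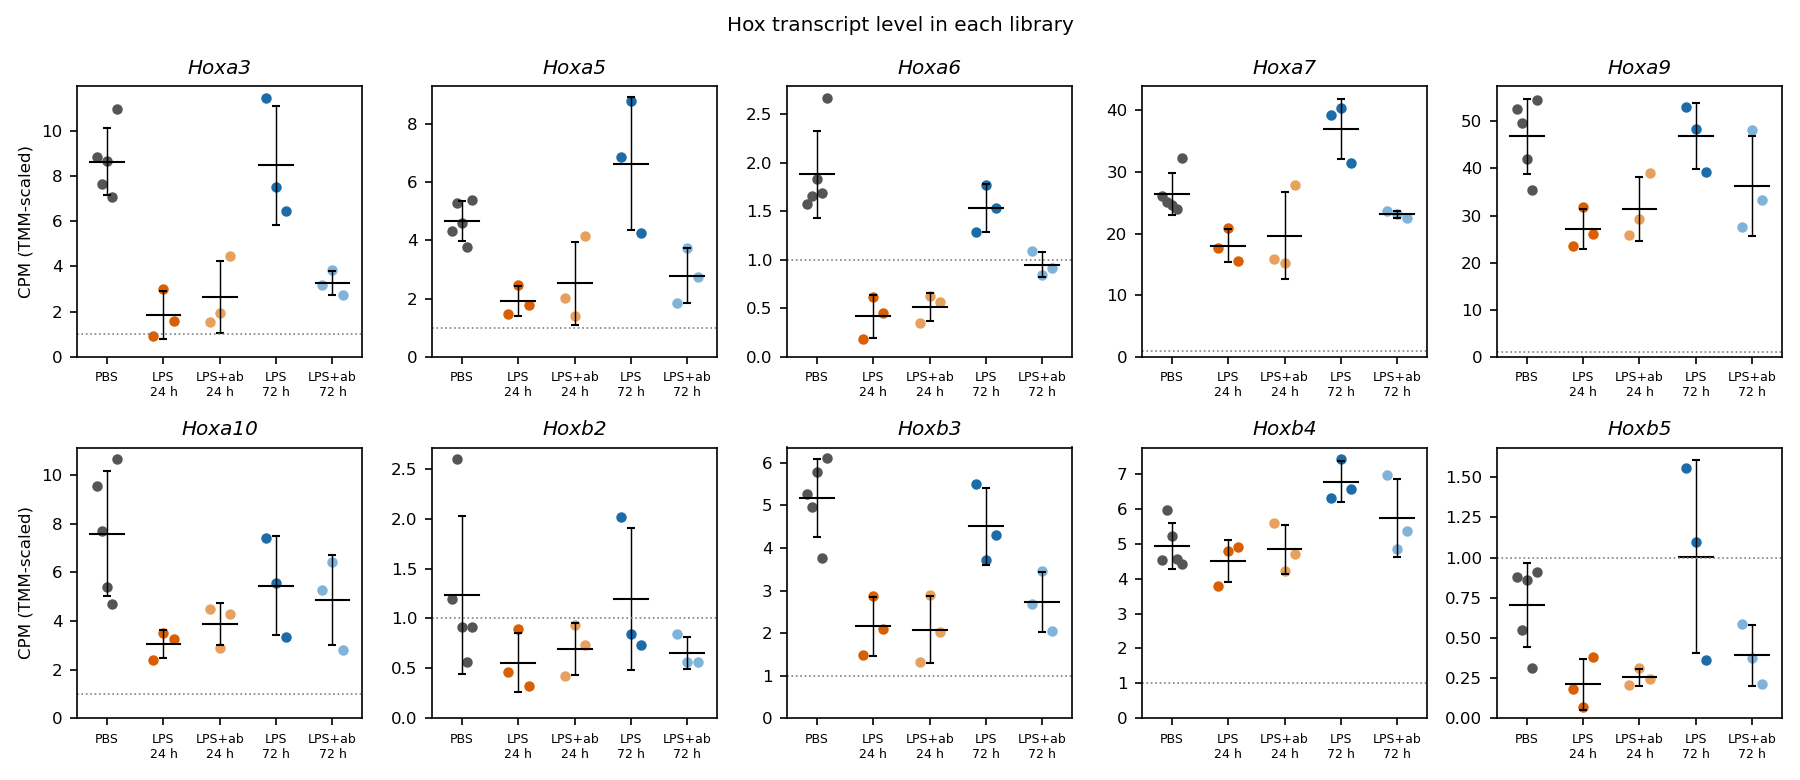
Level of each of the 10 Hox genes (vertical axis, CPM) in the 17 libraries, by group on the horizontal axis; points are libraries, the horizontal line is the group mean and bars are the SD, and the dotted line marks 1 CPM. At 24 h after LPS the points of all 6 Hoxa genes lie below every PBS point, whereas those of Hoxb4 overlap PBS.

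Comparing LPS at 24 h with PBS asks how Hox expression stood early in the response to the bacterial product. All 6 Hoxa members fell, by between 1.46-fold for Hoxa7 and 4.61-fold for Hoxa3. In the Hoxb cluster, Hoxb3 and Hoxb5 fell, whereas Hoxb2 and Hoxb4 were not called. In all, 8 of the 10 members were called lower and 0 higher by edgeR's quasi-likelihood test (Benjamini-Hochberg adjusted p below 0.05), where 37.6% of all tested genes were called and 18.5% were called lower. In 7 members every LPS library was below every PBS library, which held for 22.2% of all tested genes. The median log2 change of the members was -1.26, against -0.03 over all tested genes.

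Hoxa3, known for its role in forming the thymus and the parathyroid, measured 8.85, 7.63, 8.66, 7.07 and 10.9 CPM in the 5 PBS libraries and 0.926, 3.02 and 1.59 CPM in the 3 LPS libraries at 24 h. The groups did not overlap, and the highest LPS library was far below the lowest PBS library. Its log2 change was -2.20 (SE 0.393; edgeR adjusted p = 0.00101). Hoxa6 measured 1.57, 1.65, 1.83, 1.69 and 2.67 CPM with PBS and 0.185, 0.618 and 0.446 CPM with LPS, again without overlap. Its log2 change was -2.11 (SE 0.358; edgeR adjusted p = 0.000753), on 2, 9 and 7 reads in the LPS libraries.

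Among the genes next to them in the cluster, Hoxa5, which favours myeloid over erythroid fate when overexpressed in progenitors, measured 4.33, 5.27, 4.59, 3.76 and 5.40 CPM with PBS and 1.48, 2.47 and 1.78 CPM with LPS at 24 h. Every LPS library was below every PBS library, and the log2 change was -1.28 (SE 0.356; edgeR adjusted p = 0.0115). Hoxa7, a gene activated together with Meis1 in mouse myeloid leukaemia, measured 26.2, 25.1, 24.7, 23.9 and 32.3 CPM with PBS and 17.7, 20.9 and 15.6 CPM with LPS. The groups were separate but close, with a log2 fold change of -0.55 (SE 0.187; edgeR adjusted p = 0.0306), the smallest among the called members.

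Of the posterior genes of the cluster, Hoxa9 measured 52.7, 49.6, 42.1, 35.4 and 54.5 CPM with PBS and 23.5, 31.7 and 26.1 CPM with LPS at 24 h. PBS library 4 was the lowest control, and it was still above the highest LPS library. The log2 change was -0.79 (SE 0.203; edgeR adjusted p = 0.00761), a 1.73-fold fall. Hoxa10, a posterior gene that also acts in the uterus, measured 9.54, 7.71, 5.39, 4.69 and 10.7 CPM with PBS and 2.41, 3.50 and 3.25 CPM with LPS. Its PBS libraries were spread over a wide range, all above the LPS libraries, and its log2 change was -1.31 (SE 0.351; edgeR adjusted p = 0.00951).

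In the Hoxb cluster, Hoxb3, which overlaps in function with Hoxb4 in stem cells, measured 5.27, 4.96, 5.79, 3.76 and 6.10 CPM with PBS and 1.48, 2.88 and 2.1 CPM with LPS at 24 h. The groups did not overlap, and the log2 change was -1.25 (SE 0.297; edgeR adjusted p = 0.00476). Hoxb3os, which overlaps it on the opposite strand as given above, changed by -1.22 (SE 0.303; edgeR adjusted p = 0.0063), and the reads of this pair cannot be told apart without strand. Hoxb5 measured 0.879, 0.551, 0.860, 0.313 and 0.912 CPM with PBS and 0.185, 0.0686 and 0.382 CPM with LPS, and the highest LPS library was above PBS library 4. Its log2 change of -1.66 (SE 0.598; edgeR adjusted p = 0.0392) rests on 2, 1 and 6 reads in the LPS libraries. Hoxb2 measured 1.19, 2.60, 0.917, 0.563 and 0.912 CPM with PBS and 0.463, 0.892 and 0.319 CPM with LPS, with overlapping groups. Its log2 change of -1.12 (SE 0.535) was not called (edgeR adjusted p = 0.113).

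Hoxb4 was not called. It measured 4.52, 5.98, 5.22, 4.57 and 4.42 CPM with PBS and 3.8, 4.80 and 4.91 CPM with LPS at 24 h. The libraries overlapped, and the log2 change was -0.13 (SE 0.186; edgeR adjusted p = 0.609).

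Calls of 4 members depended on LPS library 1 at 24 h: without it, Hoxa3, Hoxa6, Hoxa9 and Hoxb3 were called, and Hoxa5, Hoxa7, Hoxa10 and Hoxb5 were not, although all 10 changes stayed negative. Hoxa7 also lost its call without PBS library 5 or LPS library 3, and Hoxb5 without PBS library 1, 3 or 5 or LPS library 2 and by DESeq2. Without the filter on low counts, neither Hoxa7 nor Hoxb5 was called. Without LPS library 3 the change of Hoxb5 was -2.45. With the replicate number as a block, 6 members were called, without Hoxa7 and Hoxb5.

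Markers of several cell types were called in the same comparison, where 18.5% of all tested genes were called lower and 19.1% higher. Of the stem and progenitor list, 8 of 13 genes were called lower and 0 higher, and the summed level of the list was 2012 to 2875 CPM with PBS and 1340 to 1540 CPM with LPS at 24 h. Of the monocyte-macrophage list 12 of 14 were lower (744 to 3938 CPM summed with PBS, 447 to 813 with LPS), of the T and NK list 4 of 10 (111 to 275 and 104 to 258), of the B-lymphoid list 3 of 10 (137 to 194 and 42.9 to 79.7), of the megakaryocyte list 2 of 6 (169 to 274 and 138 to 265) and of the stromal list 2 of 6 (188 to 248 and 85.1 to 134). Of the erythroid list 1 of 13 rose and 1 fell, and of the neutrophil list 0 of 10 were called. In such bulk samples, fewer cells of a type and less RNA per cell cannot be told apart, and the part of these shifts in the Hox result was not tested.

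**Figure D2:**
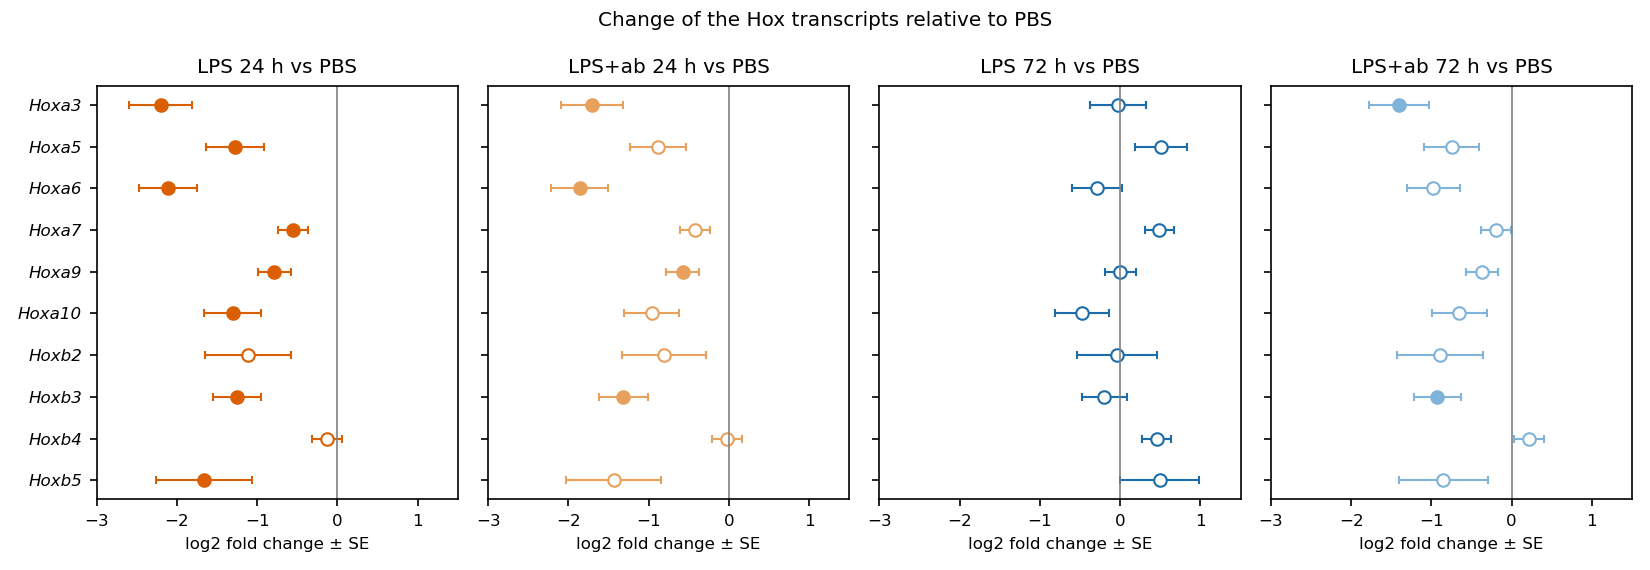
Log2 fold change of each Hox gene against PBS (horizontal axis, ± SE) in the 4 treated groups; filled points passed edgeR's adjusted p of 0.05 and open points did not. At 24 h the filled points number 8 for LPS and 4 for LPS with antibody; at 72 h they number 0 and 2.

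At 72 h after LPS without antibody, 0 of the 10 members were called against PBS by edgeR. Only 0.0201% of all tested genes were called in that comparison, and 11.4% of them had an unadjusted p below 0.05. Among the members 2 had an unadjusted p below 0.05, Hoxa7 and Hoxb4. Hoxa9 measured 53.1, 48.3 and 39.2 CPM with LPS at 72 h, inside the PBS range, for a log2 fold change of 0.00 (SE 0.197). Hoxa3 measured 11.4, 7.52 and 6.43 CPM, on both sides of the PBS range, with a log2 fold change of -0.03 (SE 0.348; edgeR adjusted p = 0.983).

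Hoxb4 measured 6.32, 7.43 and 6.58 CPM with LPS at 72 h, and all 3 libraries were above all 5 PBS libraries, as held for 4.96% of all tested genes. Its log2 change of 0.46 (SE 0.183) did not pass the adjusted threshold (edgeR adjusted p = 0.379). Hoxa7 measured 39.3, 40.4 and 31.4 CPM, with the lowest library just under PBS library 5, for a log2 fold change of 0.49 (SE 0.180; edgeR adjusted p = 0.345). Hoxa5 measured 6.87, 8.78 and 4.24 CPM, for a log2 fold change of 0.50 (SE 0.326; edgeR adjusted p = 0.564). Limma's voom with sample quality weights called these 3 genes higher than PBS, and the other alternatives called 0. Cell type markers differed there too. Of the monocyte-macrophage list 0 of 14 were called, with 11 changes negative and 3 positive (median -4.66). By edgeR, 12 of its genes had an unadjusted p below 0.05, as did 11.4% of all tested genes. Of the erythroid list 0 of 13 were called, and all 13 changes were negative (median -2.15). The stem and progenitor sum was 2222 to 2732 CPM, against 2012 to 2875 CPM with PBS. The part of these differences was not tested.

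Between 24 h and 72 h after LPS the Hox genes differed in the opposite direction. Of the 10 members 8 rose and 0 fell (edgeR), where 31.1% of all tested genes were called and 14.7% were called higher. This comparison shares its 24 h libraries with the comparison against PBS, so the results are not independent. The largest rises were those of Hoxa3, from 1.85 ± 1.07 to 8.46 ± 2.64 CPM (SD, n = 3 each; log2 change 2.17, SE 0.419; edgeR adjusted p = 0.00152), and Hoxb5, from 0.212 ± 0.159 to 1.01 ± 0.601 CPM (2.15, SE 0.642; edgeR adjusted p = 0.0193). Hoxb5 at 72 h was spread widely, at 1.56, 1.10 and 0.365 CPM, and its lowest library overlapped the 24 h group.

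Hoxa6 rose by 1.82 (SE 0.387), Hoxa5 by 1.78 (SE 0.388) and Hoxa7 by 1.04 (SE 0.207) on the log2 scale, and in all 3 every 72 h library was above every 24 h library (22.4% of all tested genes). Hoxb3 rose by 1.05 (SE 0.323) and Hoxa9 by 0.79 (SE 0.223), also without overlap. Hoxb4, which had not been called at 24 h against PBS, rose by 0.59 (SE 0.208; edgeR adjusted p = 0.0424), from 4.50 ± 0.613 to 6.78 ± 0.583 CPM (SD, n = 3 each). Hoxa10, at 7.42, 5.57 and 3.36 CPM at 72 h, differed by 0.83 (SE 0.381; edgeR adjusted p = 0.112), and Hoxb2 by 1.07 (SE 0.591; edgeR adjusted p = 0.180), and neither was called. Leaving out single libraries left 4 to 7 calls: 4 without library 1 of either group and 5 without LPS library 3 at 24 h. Hoxa3, Hoxa5, Hoxa6 and Hoxa7 were called in all 6 of these fits, and Hoxb4 in none of them. Without LPS library 3 at 24 h the change of Hoxb5 was 2.93.

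Cell type markers were called between 24 h and 72 h after LPS too, where 14.7% of all tested genes were called higher and 16.4% lower. Of the stem and progenitor list 7 of 13 were called higher at 72 h (1340 to 1540 CPM summed at 24 h, 2222 to 2732 at 72 h), of the T and NK list 3 of 10 (104 to 258 and 162 to 217) and of the stromal list 2 of 6 (85.1 to 134 and 240 to 270.0). Of the B-lymphoid list 1 of 10 was called higher and 9 changes were positive. Of the monocyte-macrophage list 1 of 14 was called higher, with 6 changes positive and 8 negative (median -0.14). Of the erythroid list 4 of 13 were called lower and all 13 changes were negative, with a median of -2.66 (754 to 1698 CPM and 173 to 453 CPM). The part of these shifts in the Hox result was not tested.

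**Figure D3:**
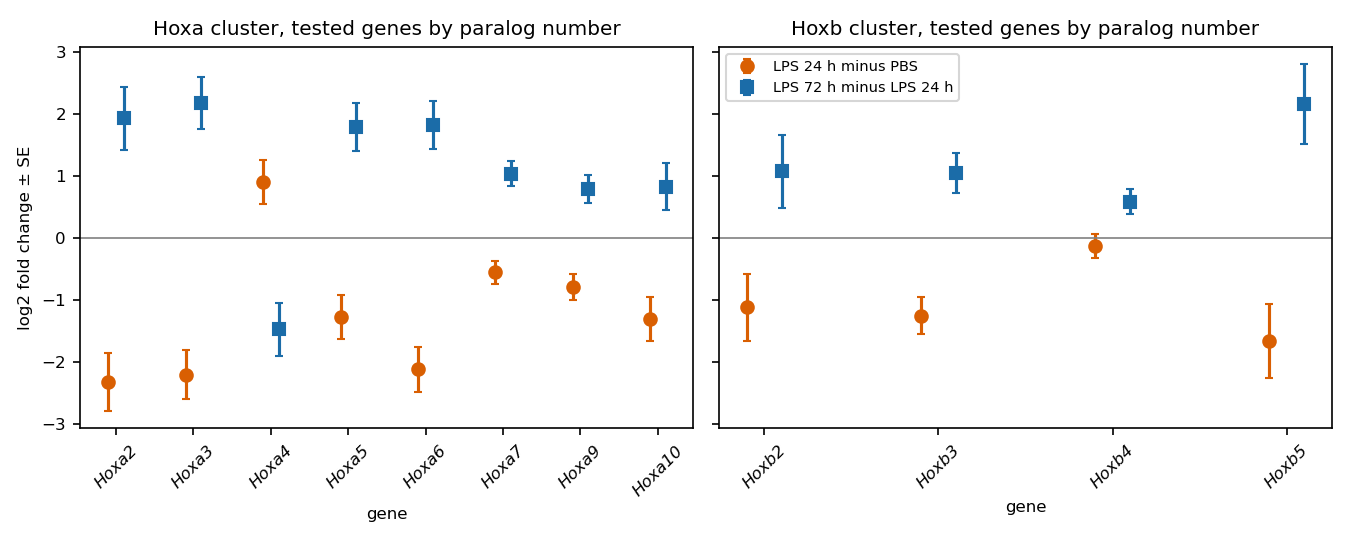
Log2 fold change (vertical axis, ± SE) of every tested gene of the Hoxa cluster (left) and the Hoxb cluster (right) in the order of its number, for LPS at 24 h against PBS (circles) and LPS at 72 h against LPS at 24 h (squares). Hoxa4 is the only gene plotted with a positive change at 24 h (0.90) and a negative change from 24 h to 72 h (-1.47).

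With LPS and antibody, comparison with PBS at 24 h again gave lower Hox levels. Of the 10 members 4 fell and 0 rose, where 24.2% of all tested genes were called and 12.5% were called lower. Hoxa3 measured 1.54, 1.95 and 4.47 CPM (log2 change -1.70, SE 0.381; edgeR adjusted p = 0.0082), and Hoxa6 measured 0.350, 0.624 and 0.569 CPM (-1.86, SE 0.352; edgeR adjusted p = 0.00473). Hoxb3 measured 1.33, 2.89 and 2.03 CPM (-1.31, SE 0.299; edgeR adjusted p = 0.0088). In all 3 genes every library was below every PBS library, as in 16.7% of all tested genes.

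Hoxa9 measured 25.9, 29.3 and 39.1 CPM with LPS and antibody at 24 h, with library 3 above PBS library 4, and was called narrowly (log2 change -0.58, SE 0.201; edgeR adjusted p = 0.0484). Library 3 of this group had the highest level of the 3 also for Hoxa3, Hoxa5 (2.03, 1.40 and 4.14 CPM) and Hoxa7 (16, 15.2 and 27.9 CPM). Without it, Hoxa5 and Hoxa7 were called too and the count was 6, and without library 2 it was 2. Hoxa9 lost its call without library 1 or 2 of this group or without PBS library 1, 2, 3 or 5, and Hoxa3 without library 2. Without the filter on low counts Hoxa9 was not called, and voom called Hoxa5 and Hoxa7 in place of Hoxa9. Hoxb4 measured 5.60, 4.21 and 4.71 CPM, with 1 library under the PBS range and the other two inside it, and its log2 change was -0.03 (SE 0.186; edgeR adjusted p = 0.929). In this comparison 6 of the 13 stem and progenitor markers were called lower and 1 higher, with a summed level of 1487 to 1829 CPM. Of the 14 monocyte-macrophage markers 10 were called lower (732 to 948 CPM). Of the T and NK list 3 of 10 were called lower and of the B-lymphoid list 1 of 10. In each of these lists all 10 changes were negative, with medians of -1.94 and -1.89. Of the erythroid list 1 of 13 was called higher and 0 lower. Of all tested genes 12.5% were called lower and 11.7% higher. The part of these shifts was not tested here either.

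At 72 h with the antibody, 2 of the 10 members were called lower than PBS, Hoxa3 and Hoxb3, and 0 higher, where 13.2% of all tested genes were called and 6.43% were called lower. Hoxa3 measured 3.19, 3.83 and 2.76 CPM, all below the PBS libraries, which held for 13.6% of all tested genes (log2 change -1.41, SE 0.375; edgeR adjusted p = 0.0263). Hoxb3 measured 2.69, 3.45 and 2.05 CPM, also below all PBS libraries (-0.93, SE 0.293; edgeR adjusted p = 0.0484). Hoxa6, at 1.09, 0.840 and 0.919 CPM, was below all PBS libraries without passing the threshold (-0.98, SE 0.328; edgeR adjusted p = 0.0575).

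Hoxa9 was spread from 27.5 CPM in library 1 to 48.1 CPM in library 2 with 33.2 CPM in library 3, and its change of -0.37 (SE 0.200) was not called (edgeR adjusted p = 0.215). Hoxb4 measured 6.98, 4.85 and 5.37 CPM, for a log2 fold change of 0.22 (SE 0.184; edgeR adjusted p = 0.447). Both calls at this time were lost without PBS library 5 or without library 1 or 3 of the antibody group, and Hoxb3 lost its call also without PBS library 1, 2 or 3. With the replicate block, neither was called.

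In that comparison with PBS, 6 of the 10 T and NK markers were called lower, and all 10 changes were negative, with a median of -2.30 (111 to 275 CPM summed with PBS and 47.4 to 183 with LPS and antibody at 72 h). Of the stem and progenitor list 2 of 13 were lower, of the monocyte-macrophage list 2 of 14 and of the erythroid list 1 of 13. Of all tested genes 6.43% were called lower. The part of these shifts in the Hox result was not tested.

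Between 24 h and 72 h with the antibody, 0 of the 10 members were called, as were 0 of all tested genes by edgeR (0.00%; 4.25% had an unadjusted p below 0.05), and DESeq2 and voom also called 0 members. Hoxa6 alone among the members had an unadjusted p below 0.05 there, with a log2 fold change of 0.88 (SE 0.392; edgeR adjusted p = 0.918).

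Setting LPS with antibody against LPS alone asks what differed when the antibody was added. At 24 h, 0 of the 10 members were called and 0 had an unadjusted p below 0.05, where edgeR called 0.00% of all tested genes, 1.83% of which had an unadjusted p below 0.05; DESeq2 and voom also called 0 members. The log2 differences ran from -0.06 for Hoxb3 to 0.50 for Hoxa3, and the libraries of all 10 members overlapped, where 3.15% of all tested genes did not overlap. At 72 h all 10 differences were negative and 3 members were called lower with the antibody, where 15.1% of all tested genes were called and 6.48% were called lower.

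Hoxa3 measured 11.4, 7.52 and 6.43 CPM with LPS at 72 h and 3.19, 3.83 and 2.76 CPM with LPS and antibody, without overlap (log2 difference -1.38, SE 0.405; edgeR adjusted p = 0.0331). Hoxa5 measured 6.87, 8.78 and 4.24 CPM with LPS and 1.85, 3.73 and 2.76 CPM with LPS and antibody, also without overlap (-1.25, SE 0.381; edgeR adjusted p = 0.0380). Hoxa7 measured 39.3, 40.4 and 31.4 CPM with LPS and, in a narrow band, 23.6, 23.2 and 22.5 CPM with LPS and antibody (-0.68, SE 0.205; edgeR adjusted p = 0.0371). In Hoxa7 the antibody group stood just below the PBS range, and it was the LPS group that stood mostly above it.

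Hoxa6 (-0.68, SE 0.363; edgeR adjusted p = 0.206) and Hoxb3 (-0.73, SE 0.321; edgeR adjusted p = 0.130) also had every antibody library below every LPS library at 72 h (16.1% of all tested genes), without a call. Hoxa9 (-0.37, SE 0.222), Hoxa10 (-0.17, SE 0.376) and Hoxb4 (-0.24, SE 0.207) overlapped between the groups. The 3 calls were sensitive to single libraries: 0 remained without LPS library 1 or 2 or without antibody library 1 or 3, and Hoxa5 alone without antibody library 2. With the replicate number as a block 0 of the 3 were called, and without the filter on low counts Hoxa3 alone. At 72 h the summed level of the stem and progenitor list was 2222 to 2732 CPM with LPS and 1551 to 2201 CPM with LPS and antibody. Of its 13 genes 1 was called lower and 0 higher, where 6.48% of all tested genes were called lower and 8.64% higher. The erythroid list differed too, with 173 to 453 CPM with LPS against 291 to 1773 CPM with LPS and antibody and 1 of 13 genes called higher. Of the T and NK list 2 of 10 were called lower with the antibody and all 10 changes were negative, with a median of -1.75 (162 to 217 CPM summed with LPS and 47.4 to 183 with LPS and antibody). Of the B-lymphoid list 1 of 10 was called lower and 9 changes were negative, and of the stromal list 1 was called lower. Of the monocyte-macrophage list 1 of 14 was called lower, but 9 changes were positive and 5 negative, with a median of 2.11. Its summed level was 691 to 1337 CPM with LPS and 526 to 996 CPM with LPS and antibody. The part of these differences in the Hox result was not tested.

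The change of the antibody effect from 24 h to 72 h was tested as an interaction. It was negative for all 10 members, with a median of -0.87 on the log2 scale against 0.01 over all tested genes. EdgeR called 0 members, where it called 6.37% of all tested genes, and 3 members had an unadjusted p below 0.05 (24.2% of all tested genes): Hoxa3 (-1.87, SE 0.583; edgeR adjusted p = 0.0658), Hoxa5 (-1.64, SE 0.545; edgeR adjusted p = 0.0801) and Hoxa7 (-0.80, SE 0.291; edgeR adjusted p = 0.105). DESeq2 called Hoxa3 and Hoxa5, and voom called Hoxa7. By edgeR, Hoxa3 was called without library 2 of either 24 h group, and Hoxa5 without antibody library 2 at 24 h. A difference in the antibody effect between the times was thus not established for any single member by the test used throughout.

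Across the 17 libraries the members varied together to different degrees. Over the 45 pairs, Pearson's r of log2 CPM had a median of 0.69 and ran from 0.20 to 0.92. With Hoxb4 the median was 0.35, and without Hoxb4 it was 0.73. Within groups, as deviations from the group means, the median over all pairs was 0.27. These are descriptions over libraries that share group differences and depth.

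Of 11130 candidates outside the Hox genes, with a mean of at least 5 CPM, the 5 most like Hoxa9 over the 17 libraries were Hlf (r = 0.95), Emp1 (0.95), Fam167a (0.94), Trpm4 (0.94) and Cyp2j6 (0.94). For Hlf, a transcription factor used as a marker of stem cells, r with Hoxa9 was 0.96 for deviations from the group means, and Spearman's rho was 0.96 over all libraries. Both come from the 17 libraries by which Hlf was picked, so they are not separate evidence. Hlf averaged 135.2 CPM with PBS, 31.9 with LPS at 24 h, 37.4 with LPS and antibody at 24 h, 93.1 with LPS at 72 h and 49.1 with LPS and antibody at 72 h. The genes most like Hoxb4 were Abi1 (r = 0.85), Icosl (0.84), Lmbr1l (0.84), Clec2i (0.82) and Tmem243 (0.82). Within the PBS group, library 5 had the highest Hoxa9 (54.5 CPM) and the lowest neutrophil marker sum (2531 CPM). Library 4 of that group had the lowest Hoxa9 (35.4 CPM) and the highest neutrophil marker sum (15092 CPM). In both groups with LPS alone, the highest Hoxa9 also went with the lowest neutrophil sum. The antibody groups went the other way. At 24 h with the antibody, library 1 had the lowest of both (25.9 and 4744 CPM). Library 3 of that group had the highest of both (39.1 and 12414 CPM). At 72 h with the antibody, library 1 again had the lowest of both (27.5 and 3770 CPM). Whether composition sets these levels was not tested.

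**Figure D4:**
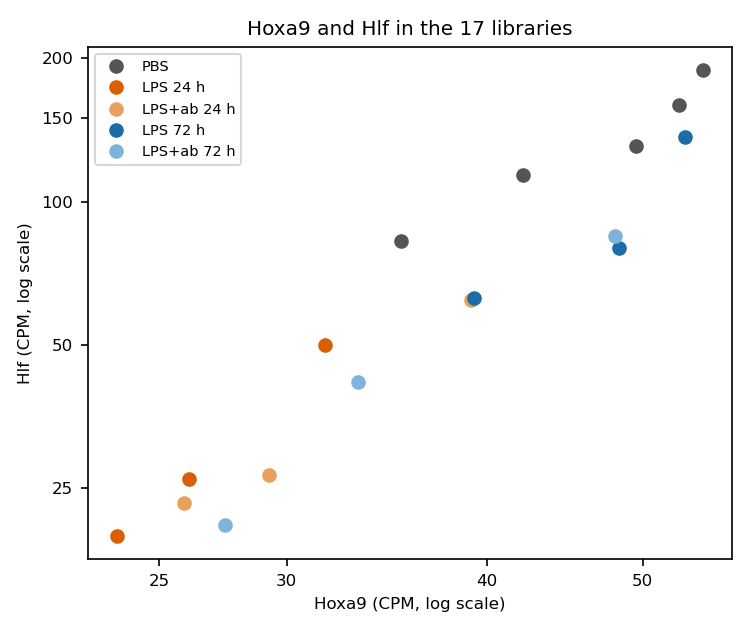
Hlf (vertical axis, CPM, log scale) against Hoxa9 (horizontal axis, CPM, log scale) in the 17 libraries, coloured by group. Within every group, libraries with more Hoxa9 had more Hlf. Group means went the same way except for PBS and LPS at 72 h. Their mean Hoxa9 was 46.8 and 46.9 CPM, and their mean Hlf was 135.2 and 93.1 CPM. PBS libraries lie higher in Hlf than treated libraries of like Hoxa9. Hlf was picked by its likeness to Hoxa9 in these same libraries.

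The table held 29 other Hox genes, of which 2 passed the filter, Hoxa2 and Hoxa4, and the remaining 27 had too few counts to test. Hoxa2, at the end of the Hoxa cluster, fell from 1.40 ± 0.497 (SD, n = 5) to 0.280 ± 0.133 CPM (SD, n = 3) at 24 h after LPS (log2 change -2.31, SE 0.467; edgeR adjusted p = 0.0019). That fall rests on 4, 5 and 2 reads in the LPS libraries. Hoxa4, named after its values had been seen, went the other way from its neighbours. It measured 1.00, 0.551, 0.631, 0.814 and 0.701 CPM with PBS and 1.67, 1.58 and 0.956 CPM with LPS at 24 h, and that change of 0.90 (SE 0.350) just missed the threshold (edgeR adjusted p = 0.0540), which it passed without PBS library 1 or LPS library 3. With LPS at 72 h it was at 0.458, 0.676 and 0.365 CPM, lower than at 24 h (-1.47, SE 0.424; edgeR adjusted p = 0.0163), a call lost without LPS library 1 at 24 h or LPS library 1 or 3 at 72 h. In GENCODE, 255 of its exon bases lie opposite another transcript.

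Hox cluster noncoding RNAs were represented by 4 tested genes of 15 listed. At 24 h after LPS 2 of them fell and 0 rose, where 18.5% of all tested genes were called lower. Hoxaas2 went from 1.32 to 0.119 CPM (log2 change -3.35, SE 0.566; edgeR adjusted p = 0.000746), on 1, 2 and 2 reads in the LPS libraries. At 72 h it was back at 1.5 CPM. It shares 503 exon bases with Hoxa3 on the opposite strand, where the reads of the 2 genes cannot be told apart without strand. Hoxb3os went from 4.38 to 1.87 CPM, as given above.

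TALE cofactors, the partners of Hox proteins on DNA, had 9 of 11 genes tested, of which 3 fell and 0 rose at 24 h after LPS (18.5% of all tested genes were called lower). Meis1, the partner of Hoxa9, measured 99.4, 100.3, 96.1, 69.4 and 139 CPM in the PBS libraries and 31.9, 50.7 and 39.97 CPM with LPS at 24 h. The groups did not overlap (log2 change -1.30, SE 0.244; edgeR adjusted p = 0.00127), and at 72 h Meis1 was higher than at 24 h (0.97, SE 0.262; edgeR adjusted p = 0.0114), a call lost without LPS library 1 at 72 h. Meis3 (-2.62, SE 0.598, on 1, 6 and 7 reads in the LPS libraries) and Tgif1 (-0.39, SE 0.126) also fell at 24 h. Tgif1 lost its call without PBS library 3 or 5 or LPS library 1 or 3. Against PBS, 4 TALE genes were lower with LPS and antibody at 24 h (12.5% of all tested genes) and 2 at 72 h (6.43%). With LPS at 72 h 0 were called, where only 0.0201% of all tested genes were called in either direction.

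Genes that maintain or repress Hox expression were called in both directions at 24 h after LPS. In the Kmt2a list and the Polycomb list the share called in either direction was close to the 37.6% of all tested genes. Of 21 tested genes for Kmt2a and its partners, 5 rose and 3 fell: Kmt2a itself fell from 228.2 to 131.4 CPM (log2 change -0.80, SE 0.219; edgeR adjusted p = 0.0108) and the related methyltransferase Ash1l fell by 0.80 (SE 0.237), whereas the complex subunits Dpy30 (1.12, SE 0.246) and Ash2l (0.62, SE 0.141) rose. Dpy30 measured 222.7 CPM in LPS library 1 at 24 h and 87.0 and 102.2 CPM in the other two, and without library 1 its change was 0.60. Without LPS library 1 at 24 h, Kmt2a (-0.52) and Ash1l (-0.52) were not called. Men1, which encodes menin, was not called (-0.06, SE 0.112; edgeR adjusted p = 0.724).

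Of 26 genes of the Polycomb list, which also holds the demethylase genes Kdm6a and Kdm6b, 2 rose and 8 fell. By direction, 19.1% of all tested genes were called higher and 18.5% lower, so the calls of this list leaned to lower levels. The largest changes were in the subunit genes Cbx7 (-1.26, SE 0.293), Phf1 (-1.24, SE 0.261), Cbx2 (-1.14, SE 0.322) and Phc1 (-0.87, SE 0.189). Cbx2 was not called without LPS library 1 at 24 h. The catalytic subunit gene Ezh2 (0.17, SE 0.134; edgeR adjusted p = 0.328) and Bmi1 (0.08, SE 0.119; edgeR adjusted p = 0.603) were not called. Of 13 tested upstream regulators, 3 rose and 5 fell, so 8 were called. Among all tested genes 37.6% were called in that comparison and 18.5% were called lower. Mecom, a stem cell transcription factor, fell from 27.0 to 4.33 CPM (-2.63, SE 0.472; edgeR adjusted p = 0.00104), Zfp521 by 1.32 (SE 0.258) and the retinoic acid receptor gene Rara by 1.28 (SE 0.214), and Npm1, a nucleolar protein gene, rose from 1410 to 3003 CPM (1.09, SE 0.173). With LPS at 72 h, 0 genes of these 3 lists were called against PBS, where only 0.0201% of all tested genes were called.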

How the data were processed

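Whole-number read counts per gene symbol in 17 libraries were deposited by the authors in 1 table. The submitters' processing notes name HISAT2 2.2.0, Subread, featureCounts 2.1.1, R 4.3.2, DESeq2 and the GRCm38 build, without their roles; annotation, strandedness and read filters are not given in the sources used here. Groups came from the sample titles, and 0 columns were unmatched.

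The tests used edgeR 4.0.16 under R 4.3.3: filterByExpr (minimum count 10, minimum total 15; 14920 genes, 99.9% of counts), TMM factors, and 1 quasi-likelihood fit of all 17 libraries with a mean per group. P-values were Benjamini-Hochberg adjusted over all tested genes within each of 9 comparisons. The SE is the absolute log2 change over the square root of F. The fit was tested on simulated data. Alternatives were other scaling factors, DESeq2 1.42.0, voom (limma 3.58.1), other filters, the compared groups alone, a replicate block and leaving out each library.

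The members and lists were chosen with earlier results of these data known. All 10 members are named, as are Meis1, Kmt2a, Men1, Ezh2, Bmi1, up to 4 further called genes per list with the largest change at 24 h after LPS, and the 5 genes most like Hoxa9 and Hoxb4; 1 further gene of this rule is not reported here. Hoxa4, Pbx4 and the later values of Meis1 were added after values were seen. Same-numbered libraries deviated together in every pair only for LPS at 24 h and PBS (r = 0.19, 0.19 and 0.16), from numbers in the titles. Exon overlaps are from GENCODE M21, upstream sequences from RefSeq (GRCm38.p6).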

Additional observations from a re-analysis of the deposited data

Results flagged for a closer look

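In the PBS group, library 5 stood apart from the other 4 libraries for Hoxa6, at 2.67 CPM, and for Hoxa7, at 32.3 CPM, in both cases as the highest value. Chance sets apart about 1 in 20 groups by the gap used here. PBS library 5 also had the highest summed level of stem and progenitor markers (2875 CPM) and the lowest of neutrophil markers (2531 CPM) of its group.

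The antibody effect differed between 72 h and 24 h for 2 genes of the fixed lists that are not among the 10. For Hoxa4 the difference of effects was 2.2 on the log2 scale (SE 0.588; edgeR adjusted p = 0.0391): the antibody group was higher at 72 h (1.35, SE 0.428; edgeR adjusted p = 0.0450) and not called at 24 h (-0.85, SE 0.403). The call at 72 h was lost with upper-quartile factors, by DESeq2, without the filter, with the replicate block and in 5 of 6 fits leaving out 1 library (edgeR adjusted p up to 0.142). For Pbx4, a Hox cofactor gene, it was -1.43 (SE 0.398; edgeR adjusted p = 0.0448), with 18.4, 16.6 and 13.4 CPM for LPS and 7.90, 5.98 and 5.58 CPM for LPS and antibody at 72 h. Both interactions lost their call with the replicate block, without the filter, in the fit of the compared groups only and without most single libraries.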

How the results depend on the processing

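The number of Hox members called moved by over 1.5 times in these cases. For LPS at 72 h against PBS, voom called 3 in place of 0. For LPS with antibody at 72 h against PBS, no filter on low counts gave 1 and the replicate block 0, in place of 2. For the antibody effect at 72 h, no filter gave 1 and the replicate block 0, in place of 3. For the interaction, DESeq2 called 2 and voom 1, in place of 0. Leaving out 1 library gave 4 to 8 calls for LPS at 24 h, 4 to 7 for LPS at 72 h against 24 h, 2 to 6 for LPS with antibody at 24 h, 0 to 2 for LPS with antibody at 72 h, 0 to 3 for the antibody effect at 72 h, 0 to 2 for the interaction, and 0 for the other 3 comparisons. The cause of these shifts was not tested, beyond the fewer samples.

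With the replicate block, Hoxa9 lost its call for LPS with antibody at 24 h (3 called) and Hoxb4 for LPS at 72 h against 24 h (7 called). Outside LPS at 24 h and PBS, at least 1 same-numbered pair had a correlation of deviations under 0.1, so the numbers were not taken as pairing the libraries. Between the antibody groups the correlations were 0.72, -0.02 and 0.70, and between the groups at 72 h 0.27, 0.01 and 0.32.

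Signs turned only for changes that were not called. Single alternatives gave Bmi1 -0.042 (upper-quartile) and Men1 0.046 (voom) for LPS at 24 h, and for LPS at 72 h against PBS Hoxa3 0.026 (replicate block), Hoxb2 0.056 (voom) and Hoxa9 -0.013 (upper-quartile), -0.0054 (mean CPM of at least 1) and -0.037 (replicate block). For the antibody effect at 24 h, Hoxb4 was -0.061 with voom. Leaving out 1 library gave, at 24 h after LPS, -0.018 to 0.17 for Bmi1 and -0.11 to 0.066 for Men1; for LPS at 72 h against PBS, -0.31 to 0.12 for Hoxa3, -0.10 to 0.10 for Hoxa9 and -0.63 to 0.40 for Hoxb2; for LPS with antibody at 24 h, -0.14 to 0.086 for Hoxb4; between the antibody groups, -0.14 to 0.67 for Hoxa5, -0.044 to 0.38 for Hoxa9 and -0.35 to 0.20 for Hoxb2; for the antibody effect at 24 h, -0.090 to 1.04 for Hoxa3, -0.15 to 0.68 for Hoxa5, -0.036 to 0.62 for Hoxa6, -0.21 to 0.28 for Hoxa7, -0.36 to 0.20 for Hoxb3, -0.016 to 0.20 for Hoxb4 and -0.20 to 1.04 for Hoxb5; and for that at 72 h, -0.38 to 0.12 for Hoxa10.

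Upper-quartile factors shifted the median change over all tested genes (log2) from -0.03 to -0.16 for LPS at 24 h, from 0.02 to 0.13 for LPS at 72 h against 24 h and from 0.00 to -0.11 for LPS with antibody at 24 h. Under them, 2030 genes were higher and 3490 lower for LPS at 24 h, against 2849 and 2767 in the reported fit. The depth limits Hoxb2, Hoxb5 and Hoxa6 most.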
